A study of Mus musculus with 4 samples.

Results

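The genes described here are 10 mouse genes of the Hippo pathway, given as a list of symbols and all found among the 12967 gene symbols measured. They are the coactivator genes Yap1 and Wwtr1, the TEAD factor genes Tead1 and Tead3, the kinase genes Lats1 and Lats2, and the target genes Amotl2, Ccn1, Ccn2 and Ankrd1. They were chosen with results of these libraries known, since Tead1 was among the genes with the lowest Caprin-1 over IgG ratio and Ccn2 was higher in shCerS4 cells. Those values are therefore given as a description of how the genes were picked.

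RNA immunoprecipitation followed by sequencing was performed on 4T1, a metastatic mammary carcinoma line of the BALB/c mouse, to learn which mRNAs Caprin-1 binds when lipid metabolism is altered. Caprin-1 is an RNA-binding protein of stress granules, and the work was set in the context of its complex with PD-L1. One line stably carried a control hairpin (shSCR) and the other a hairpin that targets the ceramide synthase CerS4 (shCerS4), and both were kept in 4 µg/mL puromycin. Each line was precipitated with anti-Caprin-1 and with IgG, the control for background, which gave 4 groups of 1 library each. Whether either line is a clone or a pool is not given in the labels. Cers4 has no value here, so the knockdown was not checked.

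In the Hippo pathway, a cascade of kinases ending in LATS1 and LATS2 phosphorylates the coactivators YAP (encoded by Yap1) and TAZ (encoded by Wwtr1) and keeps them out of the nucleus. When the kinases are inactive, YAP and TAZ enter the nucleus, bind TEAD transcription factors and switch on genes such as Ccn1, Ccn2, Ankrd1 and Amotl2. The pathway limits organ size, and active YAP and TAZ are known drivers of growth and spread in mammary carcinoma. Lats2 and Amotl2 are both targets of YAP and restraints on it, and so form negative feedback.

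With 1 library per group there is no replicate check and no significance test for any difference below. Levels are in CPM, the reads of a gene scaled to a common library total. Each log2 ratio is followed by its 95% counting interval in brackets, which reflects the counting of reads and no other source of error. The call "past 2-fold" needed a ratio of 2-fold or more and an interval that left out 0. Estimated depths were 19.7 to 27.0 M reads, and the 10 genes had between 369 and 9504 reads in a library, which gave half-widths of 2.01% to 10.2% on their levels. All 10 passed the filter of a mean of 5 CPM over the 4 libraries, as 10283 genes did, and none was under 5 CPM in any library. Epithelial marker genes summed to 4078 to 9888 CPM over 7 of the 8 listed, Krt5 being the one without a value. No value was at hand for 5 of 6 immune, 3 of 4 endothelial and 2 of 5 fibroblast markers, among them Ptprc, Pecam1 and Dcn. The remaining immune marker, Cd68, stood at 14.6 to 49.1 CPM, the remaining endothelial marker, Kdr, was at 0 in 3 libraries and at 0.666 CPM in the shSCR IgG library, and the remaining fibroblast markers summed to 20.1 to 65.9 CPM.

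The 4 target genes and both LATS genes were higher in shCerS4 than in shSCR cells with either antibody. With Caprin-1 and then IgG, Lats1 was higher by 1.5-fold and 1.52-fold and Lats2 by 1.64-fold and 1.36-fold. The genes of YAP, TAZ and the TEAD factors were within 1.5-fold of equal levels. Of these, Wwtr1 was lower by 1.49-fold with Caprin-1 and 1.4-fold with IgG, and Tead3 was higher by 1.44-fold with IgG. Past 2-fold in the Caprin-1 precipitates were Ccn1, Ccn2 and Ankrd1, at 2.63-fold, 4.34-fold and 2.12-fold, and in the IgG precipitates they were at 2.69-fold, 3.77-fold and 2.55-fold. Between the antibodies the genes differed in another way. With Caprin-1, Tead1 lay below its IgG level by 4.44-fold in the control line and 4.55-fold in the shCerS4 line, and Lats1 by 2.34-fold and 2.36-fold, while Ccn1, Ccn2 and Ankrd1 lay within 1.31-fold of equal shares. None of the 10 Caprin-1 over IgG ratios differed past 2-fold between the cell lines.

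**Figure D1:**
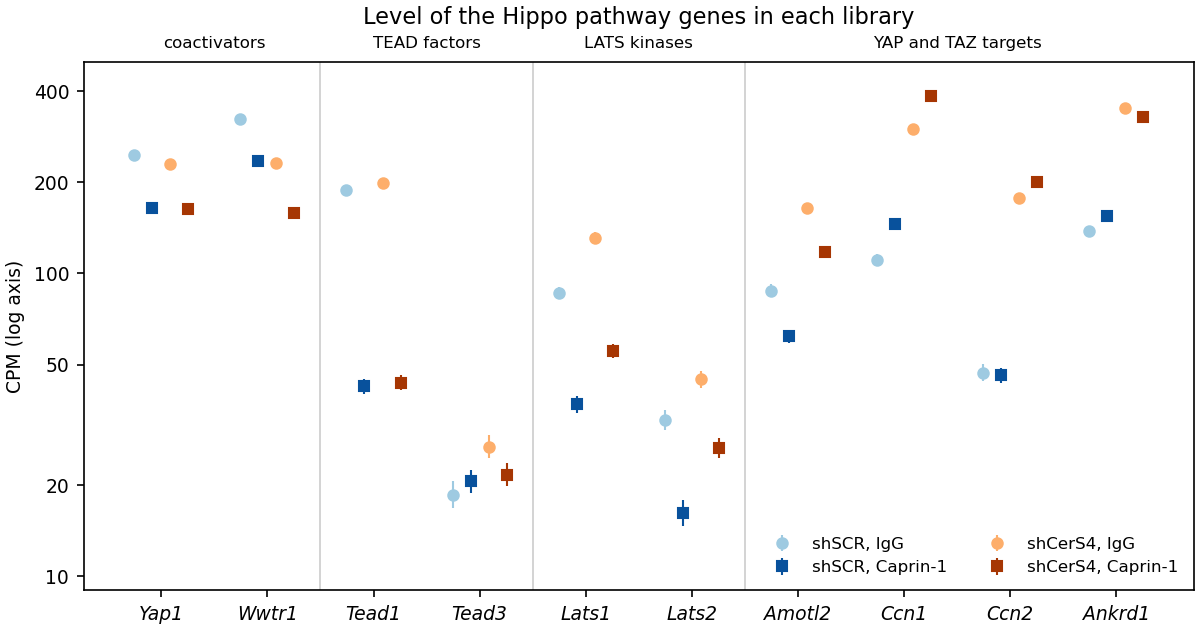
Level of each Hippo pathway gene in the 4 libraries, in CPM on a log axis, with 95% counting intervals (most are smaller than the symbols). The orange and brown points of Ccn1, Ccn2 and Ankrd1 (shCerS4) lie above the blue ones (shSCR), from 299.6 to 385 CPM against 111 to 146 CPM for Ccn1, and both Caprin-1 points of Tead1 (42.4 and 43.6 CPM) lie far below its IgG points (188 and 199 CPM). Levels of different genes are not comparable, since they are not divided by transcript length.

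Yap1 (chromosome 9, 7931999 to 8004638, build GRCm38) encodes YAP, the coactivator that LATS kinases restrain. It stood at 246 CPM in the shSCR IgG library, 165 CPM in shSCR Caprin-1, 230.2 CPM in shCerS4 IgG and 163 CPM in shCerS4 Caprin-1. The 2 Caprin-1 libraries were the low ones in both lines, and their counting intervals overlapped each other. Its shCerS4 over shSCR log2 ratio was −0.02 [−0.08, 0.05] with Caprin-1 and −0.10 [−0.16, −0.04] with IgG. Its Caprin-1 over IgG log2 ratio was −0.58 [−0.64, −0.52] in shSCR cells and −0.50 [−0.56, −0.44] in shCerS4 cells, both under 2-fold. The gene has 2 transcripts in the data, and the one that was more abundant on average supplied 59.6% of Yap1 in shSCR IgG, 56.1% in shSCR Caprin-1, 53.5% in shCerS4 IgG and 49.1% in shCerS4 Caprin-1. Transcript values mostly were not whole reads, so the division between transcripts is an estimate.

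Wwtr1 (chromosome 3, 57455644 to 57575910) encodes TAZ, the paralog of YAP. It stood at 323 CPM in shSCR IgG, 236 CPM in shSCR Caprin-1, 231 CPM in shCerS4 IgG and 158 CPM in shCerS4 Caprin-1, so both shCerS4 libraries were below the shSCR library of the same antibody. It was the member with the lowest shCerS4 over shSCR ratio, at −0.58 [−0.63, −0.52] with Caprin-1 and −0.48 [−0.54, −0.43] with IgG. Neither value reached 2-fold, and 11.1% and 14.8% of all tested genes had lower ratios. Between antibodies its log2 ratio was −0.46 [−0.51, −0.41] in the shSCR line and −0.55 [−0.61, −0.49] in the shCerS4 line. The lesser of its 2 transcripts made up 16.1% of Wwtr1 in shSCR IgG against 8.79% to 11.3% in the other libraries.

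Tead1 (chromosome 7, 112679356 to 112906784) encodes a TEAD factor, the DNA-binding partner without which YAP and TAZ cannot reach most of their targets. It stood at 188 CPM in shSCR IgG and 199 CPM in shCerS4 IgG, against 42.4 CPM in shSCR Caprin-1 and 43.6 CPM in shCerS4 Caprin-1. Both IgG libraries were high and both Caprin-1 libraries low, and within each antibody the counting intervals of the 2 lines overlapped. The Caprin-1 over IgG log2 ratio, by which Tead1 was picked, was −2.15 [−2.25, −2.06] in shSCR cells, where 40 of 10283 genes were lower. In shCerS4 cells it was −2.19 [−2.28, −2.09], with 7 genes lower. Its 3 transcripts each held between 26.2% and 38.0% of the gene in every library, and their separate Caprin-1 over IgG log2 ratios ran from −2.16 to −2.12 in shSCR cells and from −2.47 to −2.01 in shCerS4 cells. Each transcript thus had the low ratio by which the gene was picked. Reads were divided between the transcripts by estimation, so their ratios are not separate support for it. The shCerS4 over shSCR ratio of Tead1 was 0.04 [−0.08, 0.16] with Caprin-1 and 0.08 [0.01, 0.14] with IgG, and both were below 0 under trimmed-mean and median-of-ratios scaling.

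Tead3 (chromosome 17, 28331671 to 28350805), a paralog of Tead1, was not past 2-fold between the antibodies. It stood at 18.6 CPM in shSCR IgG, 20.6 CPM in shSCR Caprin-1, 26.8 CPM in shCerS4 IgG and 21.6 CPM in shCerS4 Caprin-1. The shCerS4 IgG library was the high one, and the intervals of the 2 Caprin-1 libraries overlapped. Caprin-1 over IgG was 0.15 [−0.05, 0.34] in shSCR cells and −0.31 [−0.49, −0.13] in shCerS4 cells. The difference between these, −0.46 [−0.72, −0.20], was the lowest among the 10 genes and under 2-fold. Its second transcript held 28.0% of the gene in shSCR IgG, 7.79% in shSCR Caprin-1, 3.05% in shCerS4 IgG and 2.01% in shCerS4 Caprin-1, so the gene's sum hides a transcript that was 5.20 CPM in one library and 0.435 CPM in another. The most abundant transcript alone gave 0.50 in shSCR cells and −0.29 in shCerS4 cells.

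The other TEAD genes and the Vgll cofactor genes, of which Vgll4 encodes a rival of YAP for TEAD binding, were looked at for comparison. Tead2 stood at 170.2 CPM in shSCR IgG, 178 CPM in shSCR Caprin-1, 188 CPM in shCerS4 IgG and 190.5 CPM in shCerS4 Caprin-1. Between antibodies its log2 ratios were 0.07 [0.00, 0.13] in shSCR and 0.02 [−0.04, 0.08] in shCerS4 cells. Tead4 had ratios of −0.24 and −0.31 and Vgll4 of −0.41 and −0.30 in shSCR and shCerS4 cells, and Vgll3, at 1.07 to 2.85 CPM, was under the filter. Among the TEAD genes Tead1 was the one past 2-fold between antibodies, which follows from how it was picked. No test of the difference between paralogs could be made.

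Lats1 (chromosome 10, 7681200 to 7716461) and Lats2 (chromosome 14, 57689662 to 57746212) encode the kinases that phosphorylate YAP and TAZ. Lats1 stood at 86.3 CPM in shSCR IgG, 37.0 CPM in shSCR Caprin-1, 131 CPM in shCerS4 IgG and 55.6 CPM in shCerS4 Caprin-1. No 2 of these intervals overlapped: the IgG library was the higher in each line and the shCerS4 library the higher with each antibody. Its Caprin-1 over IgG log2 ratio was −1.22 [−1.34, −1.11] in shSCR and −1.24 [−1.34, −1.15] in shCerS4 cells, past 2-fold in both. Its shCerS4 over shSCR ratio was 0.59 [0.47, 0.71] with Caprin-1 and 0.61 [0.52, 0.69] with IgG, under 2-fold.

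Lats2 showed the same order of libraries, with ratios between the antibodies closer to 0. It stood at 32.9 CPM in shSCR IgG, 16.2 CPM in shSCR Caprin-1, 44.8 CPM in shCerS4 IgG and 26.6 CPM in shCerS4 Caprin-1. Caprin-1 over IgG was −1.02 [−1.20, −0.85] in shSCR cells and −0.75 [−0.90, −0.60] in shCerS4 cells. The value in shSCR cells was called past 2-fold by a narrow margin, and the call was lost under 4 other scalings, at −0.95 to −0.84. Its shCerS4 over shSCR ratio was 0.72 [0.54, 0.90] with Caprin-1 and 0.44 [0.30, 0.59] with IgG.

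The 4 target genes are known to be switched on by TEAD factors at sites with the core letters GGAATG, so the promoters of 2 of them are shown first. RefSeq promoters of build GRCm38, running from 250 bases before to 50 bases after a gene's start, were at hand for 8 of the 10 genes, Tead1 and Ccn2 being the exceptions. GGAATG was searched on both strands, as GGAATG or CATTCC, which do not overlap each other. A start is that of a RefSeq transcript and may lie inside the span of the whole gene. For Ccn1 and Ankrd1 it is the outer end of the gene, and the 250 bases before it are printed 5′ to 3′ on the gene's strand, with each match in capitals. That of Ccn1 is chr3:145649986-145650235 (minus strand) and that of Ankrd1 chr19:36119845-36120094 (minus strand).
Ccn1: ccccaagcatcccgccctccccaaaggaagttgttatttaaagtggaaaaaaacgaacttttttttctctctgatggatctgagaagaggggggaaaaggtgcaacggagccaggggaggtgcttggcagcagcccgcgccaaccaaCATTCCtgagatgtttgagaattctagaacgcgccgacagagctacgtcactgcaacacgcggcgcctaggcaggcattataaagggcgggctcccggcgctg
Ankrd1: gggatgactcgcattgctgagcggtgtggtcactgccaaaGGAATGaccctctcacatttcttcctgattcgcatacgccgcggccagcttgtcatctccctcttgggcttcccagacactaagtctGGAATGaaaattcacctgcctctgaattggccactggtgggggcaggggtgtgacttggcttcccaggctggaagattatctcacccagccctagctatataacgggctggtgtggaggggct

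The match began 103 bases before the start in Ccn1, and 210 and 123 bases before it in Ankrd1. In Amotl2 it began 65 bases before a transcript start at 102717804, which lies 713 bases inside the gene's span. Yap1 had a match 141 bases before its start, Wwtr1 had 1 that lies 170 and 136 bases before its 2 starts, and Tead3 and Lats2 had matches in some of their promoters, at 182 to 114 bases before and 2 bases after the start in Tead3 and 4 bases after it in Lats2. Lats1 had none. In all 7 of 8 genes held a match in at least 1 promoter, against 13.8% of the 8292 tested genes with a promoter. Of their promoters 9 of 12 held a match, with the 1 match of Wwtr1 counted in both of its promoters. The share was 11.7% of the 10621 promoters of tested genes and 14.7% of all 32851. Of the other listed target genes that were tested, 4 of 13 held one. A match of 6 letters is a description of the sequence and does not show that a factor binds there.

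Ccn1 (chromosome 3, 145646971 to 145649985) encodes CYR61, a secreted matricellular protein and a direct target of YAP. It stood at 111 CPM in shSCR IgG, 146 CPM in shSCR Caprin-1, 299.6 CPM in shCerS4 IgG and 385 CPM in shCerS4 Caprin-1. Both shCerS4 libraries were above both shSCR libraries. The shCerS4 over shSCR log2 ratio was 1.40 [1.34, 1.45] with Caprin-1 and 1.43 [1.36, 1.50] with IgG, and 243 and 216 of the 10283 genes had higher ratios. Caprin-1 over IgG was 0.39 [0.32, 0.47] in shSCR and 0.36 [0.32, 0.41] in shCerS4 cells, the highest of the 10 genes in both lines and under 2-fold.

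Ccn2 (chromosome 10, 24595442 to 24598683) encodes CTGF, a matricellular protein of the same family, which TGF-beta signalling also switches on. It stood at 46.9 CPM in shSCR IgG, 46.1 CPM in shSCR Caprin-1, 177 CPM in shCerS4 IgG and 200.3 CPM in shCerS4 Caprin-1. The 2 shSCR libraries had overlapping intervals, and the 2 shCerS4 libraries lay far above them. The shCerS4 over shSCR ratio, by which Ccn2 was picked, was 2.12 [2.03, 2.21] with Caprin-1 and 1.91 [1.81, 2.02] with IgG, the highest of the 10 genes with either antibody. Its Caprin-1 over IgG ratio was −0.03 [−0.15, 0.10] in shSCR and 0.18 [0.12, 0.24] in shCerS4 cells, and the first of these was above 0 under trimmed-mean scaling.

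Ankrd1 (chromosome 19, 36111965 to 36119844) encodes a nuclear ankyrin repeat protein best known from stretched muscle. It stood at 138 CPM in shSCR IgG, 155 CPM in shSCR Caprin-1, 352 CPM in shCerS4 IgG and 329 CPM in shCerS4 Caprin-1. Again both shCerS4 libraries were above both shSCR libraries. The shCerS4 over shSCR ratio was 1.08 [1.03, 1.14] with Caprin-1 and 1.35 [1.29, 1.42] with IgG. With Caprin-1 the call of 2-fold was lost under 3 other scalings (trimmed mean, upper quartile and median of ratios), at 0.98, 0.98 and 0.96.

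Amotl2 (chromosome 9, 102717091 to 102733418) encodes an angiomotin family protein that holds YAP at cell junctions. It stood at 87.7 CPM in shSCR IgG, 62.0 CPM in shSCR Caprin-1, 165 CPM in shCerS4 IgG and 118 CPM in shCerS4 Caprin-1. The shCerS4 library was the higher with each antibody and the IgG library the higher in each line. The shCerS4 over shSCR ratio was 0.93 [0.84, 1.01] with Caprin-1 and 0.91 [0.83, 1.00] with IgG, just under 2-fold. Caprin-1 over IgG was −0.50 [−0.60, −0.40] in shSCR and −0.49 [−0.56, −0.42] in shCerS4 cells.

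With the Caprin-1 antibody, the study's main comparison, 3 of the 10 genes were thus higher by over 2-fold in the shCerS4 line and none lower, where 6.25% of all tested genes were higher and 4.95% lower. The median of the 10 log2 ratios was 0.65, against 0.146 over all tested genes. Each ratio is scaled to the library totals, so the median over all genes is not taken off. The IgG precipitates share no library with that comparison but come from the same shSCR and shCerS4 lines, so they are not an independent repeat. In the IgG precipitates the same 3 genes were higher and none lower, where 5.69% and 5.34% of all genes were called. The medians were 0.57 and 0.102. Scaling set the balance of calls over all genes: the 643 higher and 509 lower genes with Caprin-1 became 458 and 617 under median of ratios, and the 585 and 549 with IgG became 445 and 645 under the trimmed mean. Cd68, the 1 immune marker measured, was lower in shCerS4 cells, at −1.75 with Caprin-1 and −0.79 with IgG, and of the 7 epithelial markers Krt8 was lower past 2-fold, at −1.30 and −1.12, and Cdh1 higher with Caprin-1, at 1.06 against 0.69 with IgG. Under 2-fold, Epcam, Krt19 and Krt14 were higher with both antibodies and Krt18 and Krt7 lower. The epithelial markers summed to 9888 CPM in shSCR and 6188 CPM in shCerS4 cells with Caprin-1, and to 5752 and 4078 CPM with IgG. Fibroblast markers summed to 24.4 and 20.1 CPM with Caprin-1 and to 65.9 and 43.7 CPM with IgG. Nuclear-retained RNAs (Malat1, Neat1 and Kcnq1ot1) summed to 72.3 and 119.8 CPM with Caprin-1 and 221 and 339 CPM with IgG. Among these RNAs Neat1 was higher in shCerS4 cells, at log2 ratios of 0.84 with Caprin-1 and 0.88 with IgG. Malat1 stood at −0.09 and −0.42. The part of these markers and RNAs in the ratios of the 10 genes was not tested. The genes were picked in part on these ratios, so the counts describe them and give no test of the pathway. A change in level per cell and a change in the share of cells that make an mRNA cannot be told apart in such bulk libraries.

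**Figure D2:**
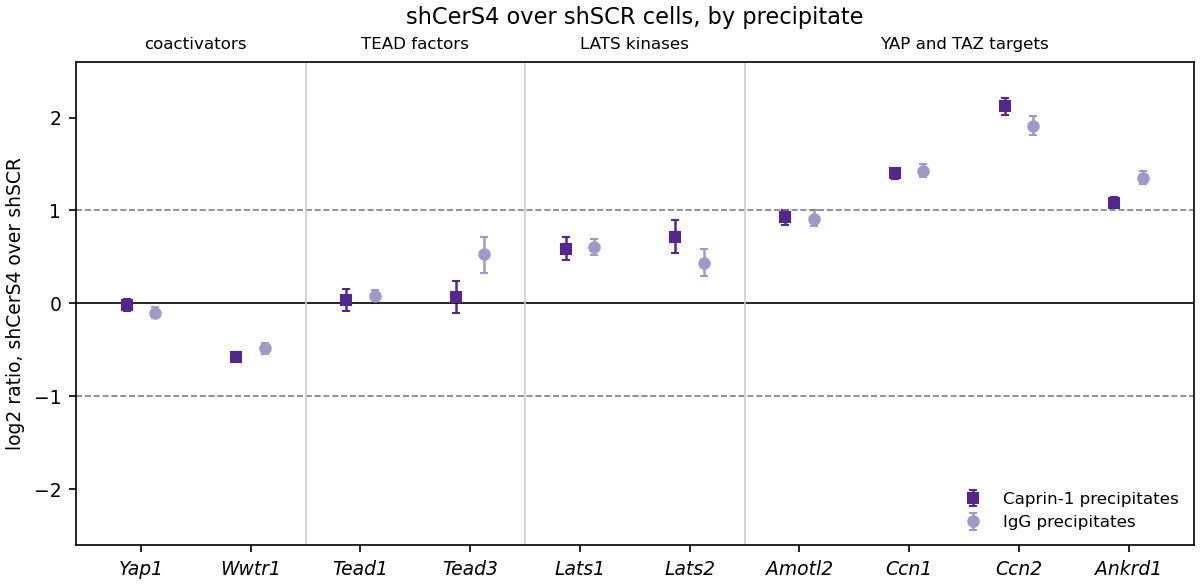
Log2 ratio of shCerS4 over shSCR cells for each Hippo pathway gene in Caprin-1 precipitates (squares) and IgG precipitates (circles), with 95% counting intervals and dashed lines at 2-fold. Ccn1, Ccn2 and Ankrd1 lie above the upper dashed line with both antibodies, Amotl2 lies just under it at 0.93 and 0.91, and Wwtr1 lies lowest at −0.58 and −0.48.

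A wider list of 28 YAP and TAZ targets was counted next. It was written from general knowledge with earlier results of these data known, so its counts are a description. Leaving out the 5 of the 10 genes that it holds, 17 were tested, of which 3 (17.6%, against 6.25% of all tested genes) exceeded 2-fold upwards with the Caprin-1 antibody and none lower, with a median of 0.29. The same count was found with IgG, where 5.69% of all tested genes were higher, with a median of 0.24. The 3 genes were Gadd45b at 2.34 [2.22, 2.46] with Caprin-1 and 2.33 [2.16, 2.50] with IgG, Gadd45a at 1.23 and 1.50, and Tgfb2 at 1.26 and 2.08. The last 2 were named after their values were seen. The Gadd45 genes encode growth arrest factors that many stress signals induce, and Tgfb2 encodes a TGF-beta ligand. The most abundant gene of the list, the receptor kinase gene Axl, stood at 0.29 and 0.09. The lowest, Asap1, which encodes an ARF regulator, stood at −0.92 and −0.92. Edn1, the endothelin gene, was under the filter with 6 reads in each shSCR library and 79 and 74 reads in the shCerS4 IgG and Caprin-1 libraries, and it too was named after its values were seen. Genes of the SRF and MRTF programme, which shares targets with YAP, had medians of 0.04 with Caprin-1 and −0.07 with IgG over 11 tested genes. Of these, with Caprin-1, Filip1l was higher past 2-fold (9.09%) and Actg1 and Egr1 lower (18.2%), where 6.25% and 4.95% of all tested genes were. Actg1 was named after its values were seen. The most abundant of the SRF and MRTF genes, the actin gene Actb, stood at −0.53 and −0.33.

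Upstream of YAP and TAZ, 28 tested genes of the kinase cascade and its regulators other than the 10 had medians of 0.23 with Caprin-1 and 0.04 with IgG. Over all tested genes the medians were 0.146 and 0.102. With Caprin-1, 1 was higher past 2-fold (3.57%) and none lower, where 6.25% and 4.95% of all tested genes were. None was past 2-fold with IgG, where 5.69% of all tested genes were higher and 5.34% lower. The gene called with Caprin-1 was Wwc1, which encodes the upstream activator KIBRA. It stood at 59.6 CPM in shSCR Caprin-1 and 124 CPM in shCerS4 Caprin-1. Its ratio was 1.06 [0.97, 1.15] with Caprin-1 and 0.84 with IgG. The lowest of the list was Sav1, which encodes a scaffold of the kinases, at −0.42 and −0.62, and the highest with IgG was Rassf1 at 0.90 [0.80, 1.01], which is under 2-fold.

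The antibodies were then set against each other within each line, a comparison of shares of each library, since no measure of RNA yield was used. In shSCR cells 3 of the 10 genes, Tead1, Lats1 and Lats2, were lower past 2-fold and none higher, where 13.0% of all tested genes were lower and 1.69% higher. In shCerS4 cells 2 of the 10, Tead1 and Lats1, were lower and none higher, where 8.02% were lower and 0.934% higher. Over all genes the 174 higher and 1337 lower in shSCR cells became 461 and 910 under upper-quartile scaling, and the 96 and 825 in shCerS4 cells became 246 and 535 under the trimmed mean. The medians of the 10 were −0.48 and −0.49, against −0.132 and −0.107 over all genes. The 2 lines share no library. Nuclear-retained RNAs moved the same way: Malat1, Neat1 and Kcnq1ot1 summed to 221 CPM with IgG and 72.3 CPM with Caprin-1 in shSCR cells, and to 339 and 119.8 CPM in shCerS4 cells. Their part in the ratios of the 10 genes was not tested.

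**Figure D3:**
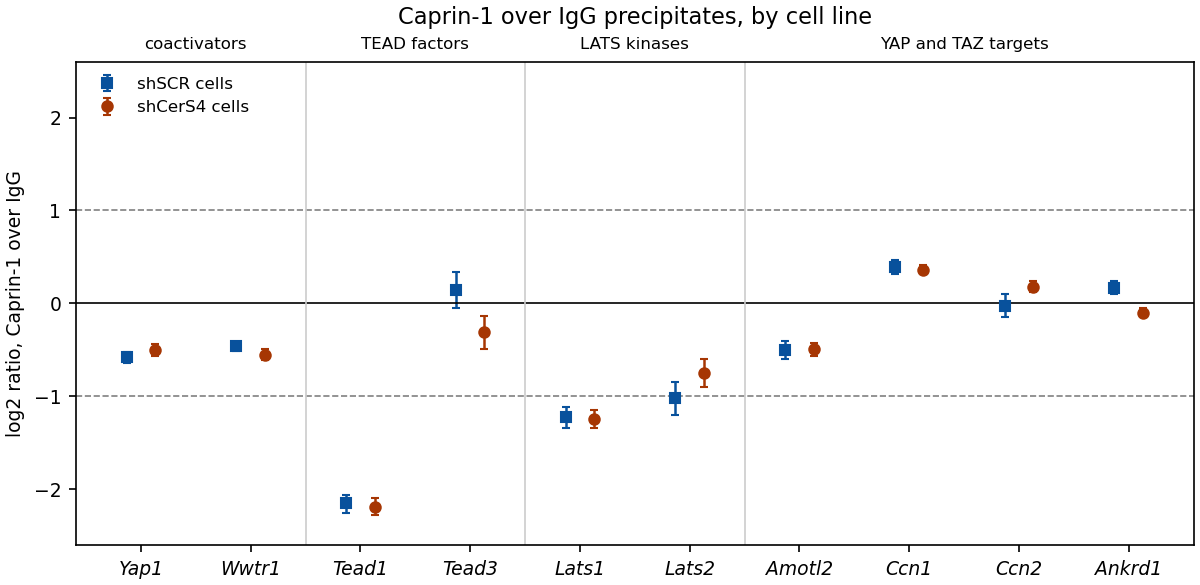
Log2 ratio of Caprin-1 over IgG precipitates for each Hippo pathway gene in shSCR cells (squares) and shCerS4 cells (circles), with 95% counting intervals and dashed lines at 2-fold. Tead1 lies lowest at −2.15 and −2.19, Lats1 is below the lower dashed line in both lines, and Ccn1 lies highest at 0.39 and 0.36.

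The length of the gene on the chromosome moved with these ratios. Over 10274 tested genes with a known span, the Spearman correlation of the Caprin-1 over IgG ratio with genomic span was −0.54 in shSCR and −0.48 in shCerS4 cells, and over the 10 genes it was −0.76 and −0.88. These are given as descriptions, since genes of a library share its depth and preparation. The target genes are compact, with spans of 3.02 kb for Ccn1, 3.24 kb for Ccn2, 7.88 kb for Ankrd1 and 16.3 kb for Amotl2. The others span 19.1 kb (Tead3), 35.3 kb (Lats1), 56.6 kb (Lats2), 72.6 kb (Yap1), 120.3 kb (Wwtr1) and 227 kb (Tead1). With genes split by span into 10 equal groups, the longest group, of 109 kb or more, had a median of −0.79 in shSCR and −0.61 in shCerS4 cells. Tead1 lies in that group at −1.37 and −1.58 from its median, which follows from how it was picked and is no evidence of a difference beyond span. Lats1 was 0.91 and 0.98 below the medians of its own span group in the 2 lines, with 67 and 31 of 1028 genes below it. Yap1 and Wwtr1 lay 0.05 to 0.33 above the medians of theirs, and Ccn1 0.00 and 0.09 above. From the medians of their groups, in shSCR and then shCerS4 cells, Ccn2 lay at −0.41 and −0.09, Ankrd1 at −0.11 and −0.32, Lats2 at −0.53 and −0.37, and Tead3 at 0.19 and −0.29. Amotl2 lay 0.51 and 0.54 below the medians of its span group.

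**Figure D4:**
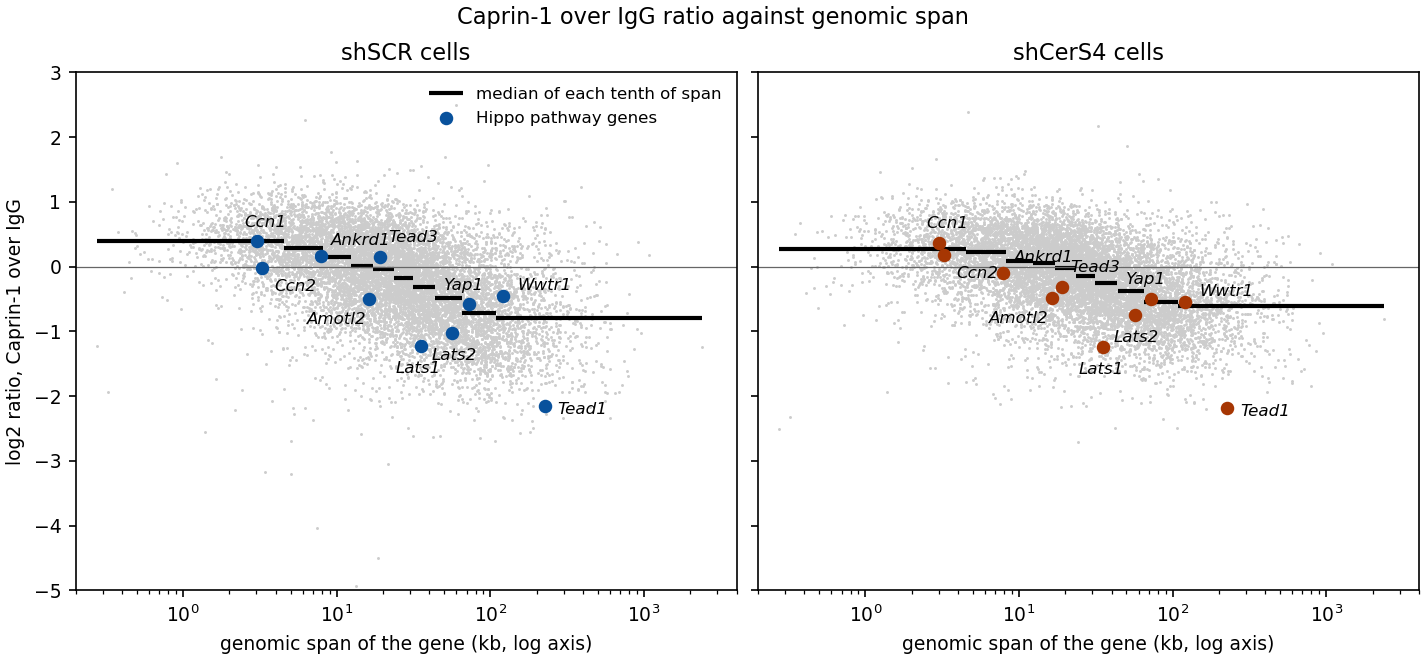
Caprin-1 over IgG log2 ratio against genomic span (kb, log axis) in shSCR cells (left) and shCerS4 cells (right). Grey points are the 10274 tested genes with a span, black lines the medians of 10 equal groups by span and coloured points the Hippo pathway genes. Tead1 lies at the long end and far below the black line of its span group (−0.79 and −0.61). In shSCR and then shCerS4 cells, Yap1 lies 0.13 and 0.05 above the line of its group, and Wwtr1 0.33 and 0.06 above.

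The shCerS4 over shSCR ratio did not run with span over all genes in this way. Its Spearman correlation with span was 0.14 with Caprin-1 and −0.02 with IgG. Among the 10 genes alone it was −0.90 and −0.94, and the 4 targets are the shortest of the 10. Set against their own span group, Ccn1, Ccn2 and Ankrd1 lay 1.30, 2.02 and 1.01 above its median with Caprin-1. With IgG they lay 1.22, 1.70 and 1.23 above it. The genes were picked in part on these ratios, Ccn2 by name, so the distances are a description. The part of span in them was not tested.

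The upstream Hippo genes other than the 10 were lower past 2-fold with Caprin-1 in 12 of 28 cases in shSCR cells (42.9%) and in 6 of 28 in shCerS4 cells (21.4%), with none higher and medians of −0.75 and −0.59, where 13.0% and 8.02% of all tested genes were lower. Their median span was 79.1 kb, against 23.5 kb over all tested genes. Amotl1, the most abundant of them, an angiomotin family gene like Amotl2, stood at 1102 CPM in shSCR IgG, 220.4 CPM in shSCR Caprin-1, 956 CPM in shCerS4 IgG and 230.3 CPM in shCerS4 Caprin-1. Its Caprin-1 over IgG ratios were −2.32 [−2.36, −2.28] and −2.05 [−2.10, −2.01], the lowest of the list in both lines. The highest was Rassf1, a tumour suppressor gene that activates the cascade, at 0.69 [0.59, 0.79] in the shSCR line and 0.23 [0.15, 0.31] in the shCerS4 line. Of the 17 other targets, 6 were lower in shSCR (35.3%) and 3 in shCerS4 cells (17.6%), against the same 13.0% and 8.02%, at a median span of 62.4 kb. The highest of them was Gadd45b, at 0.58 and 0.59. Of the 11 SRF genes, 3 (27.3%) and 1 (9.09%) were lower, the lowest being Mrtfb, an SRF coactivator gene, at −1.68 and −1.22 and the highest Actb at 0.88 and 0.68. The upstream and target lists share Ajuba, Amotl1, Amotl2, Frmd6, Lats2 and Ptpn14.

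Subtracting the shSCR antibody ratio from the shCerS4 one takes out what both precipitates of a line share. Over all genes the difference still ran with span. Its Spearman correlation with span was 0.29 over 10274 tested genes and −0.04 over the 10 genes. The median difference was −0.11 in the group of shortest span and 0.17 in the longest. The part of span in the differences below was not tested. None of the 10 genes was past 2-fold in either direction, where 0.632% of all genes were higher and 0.35% lower. The differences ran from −0.46 for Tead3 to 0.27 for Lats2, with a median of −0.02 against 0.041 over all genes. The interval excluded 0 on the positive side for Lats2, at 0.27 [0.04, 0.50], and for Ccn2, at 0.20 [0.07, 0.34]. On the negative side it did so for Tead3, for Ankrd1, at −0.27 [−0.35, −0.18], and for Wwtr1, at −0.09 [−0.17, −0.01]. For Tead1 the difference was −0.03 [−0.17, 0.10], for Ccn1 −0.03 [−0.12, 0.06], for Lats1 −0.02 [−0.17, 0.13] and for Amotl2 0.01 [−0.11, 0.13], and for Yap1 it was 0.08 with an interval reaching down to 0.00. Among the other upstream genes the highest difference was that of Fat1, a cadherin gene, at 0.80 [0.59, 1.01], and the lowest that of Rassf1, at −0.46 [−0.59, −0.33]. Among the other targets the lowest was that of Tgfb2, at −0.81 [−1.26, −0.38]. In the SRF list the highest was that of Vcl, the vinculin gene, at 0.64 [0.51, 0.76], and the lowest that of the tropomyosin gene Tpm1, at −0.41 [−0.46, −0.37].

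The genes whose profile over the 4 libraries was most like that of Tead1 were found by the distance between log2 CPM values centred on each gene, among the 7727 genes averaging 20 CPM or more. They were Kdm6b (distance 0.107), Usf3 (0.172) and Amotl1 (0.201). Kdm6b stood at 52.5 CPM in shSCR IgG, 12.8 CPM in shSCR Caprin-1, 54.8 CPM in shCerS4 IgG and 12.2 CPM in shCerS4 Caprin-1. The genes most like Ccn2 were Zc3h12a (0.149), Snhg16 (0.165) and Chka (0.207). Zc3h12a stood at 16.7 CPM in shSCR IgG, 15.6 CPM in shSCR Caprin-1, 56.3 CPM in shCerS4 IgG and 62.4 CPM in shCerS4 Caprin-1. With 4 libraries many genes share such a profile, so likeness says only that the values are close.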

How the data were processed

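RNA from 4 precipitates of 4T1 cells was sequenced, 1 library per group, from 500 ng of total RNA with a SMARTER mRNA-Seq kit, per the labels' protocols. STAR and Partek and the mm10 build (GRCm38) are named without versions, per the submitters' processing notes. The deposited table is named for counts but held CPM per transcript, with 0.0001 added by the authors to each value, as its column sums of 1000002 to 1000003 and lowest value of 0.0001 show. That constant was subtracted, and 24393 transcripts were summed by symbol. The reads behind a CPM value were estimated from the spacing of low values. Within 0.05 reads of a whole number lay 79.8% to 81.2% of gene values under 40 CPM, but 28.9% to 31.4% of transcript values, so the reads are estimates and no count test was run.

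Log2 ratios used estimated reads plus 0.5, scaled to the library total, over genes averaging 5 CPM or more. Intervals are exact binomial at 95% on whole reads, and for the difference they were combined from both ratios. Reads carry no molecular barcodes. Levels were not divided by transcript length. Spans and promoters came from RefSeq tables of GRCm38, with a span for 12953 symbols. Code was tested on simulated data. The members and lists were chosen with earlier results of these data known. The naming rule took all members, Tead and Vgll genes and, of each other list, the most abundant gene and the highest and lowest in each comparison. The highest difference among the other targets is not reported here. Alternatives were other scalings (trimmed mean without 30% of log ratios and 5% of abundances on each side, median of ratios, upper quartile, totals without the 50 most abundant genes), 5 added reads, other filters, the most abundant transcript, thinning and no interval. Python 3.11.15, numpy 2.4.6, pandas 2.3.3, scipy 1.17.1 and matplotlib 3.10.9 were used.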

Additional observations from a re-analysis of the deposited data

Results flagged for a closer look

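The Caprin-1 over IgG log2 ratio of Ankrd1 was 0.17 [0.10, 0.24] in shSCR cells and −0.10 [−0.14, −0.05] in shCerS4 cells, opposite signs in the 2 lines with both intervals excluding 0. The difference between lines was not tested, since each group has 1 library. The value in shCerS4 cells was above 0 under 3 other scalings, at 0.05 (trimmed mean and upper quartile) and 0.04 (median of ratios). No other member had ratios of opposite sign with both intervals excluding 0, between the lines or between the antibodies.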

How the results depend on the processing

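The counts of members past 2-fold stayed within 1.5 times of the reported count under the 11 alternatives, in all 5 comparisons and in each direction. A change from 3 to 2 genes is within that limit, so the lost calls given below do not show in it. All 10 genes passed filters of 1 and 20 CPM, so the filters could not change these counts. Dropping the interval could not either, since each member ratio past 2-fold already had an interval that left out 0. In 7 alternatives the calls of single genes that changed were those of Ankrd1 in the Caprin-1 precipitates (0.98 under trimmed-mean and upper-quartile scaling, 0.96 under median of ratios) and of Lats2 over IgG in shSCR cells (−0.87 by trimmed mean, −0.85 by median of ratios, −0.84 by upper quartile and, without the 50 most abundant genes, −0.95). No called value changed sign. Tead1 over IgG ran from −2.16 to −1.97 in shSCR and from −2.22 to −2.04 in shCerS4 cells, and Ccn2 in shCerS4 over shSCR cells from 1.99 to 2.12 with Caprin-1 and from 1.81 to 1.92 with IgG. Scaling moved the median over all genes from 0.146 to 0.017 (median of ratios) in the Caprin-1 precipitates and from −0.132 to 0.048 (upper quartile) for Caprin-1 over IgG in shSCR cells, so ratios near 0 have no settled sign. Over the 11 alternatives, counts over all genes moved: from 643 higher and 509 lower in the Caprin-1 precipitates to between 353 and 1274 higher and 333 and 927 lower, from 585 and 549 with IgG to 297 to 1237 and 338 to 1181, from 174 and 1337 between antibodies in shSCR cells to 113 to 461 and 910 to 2049, from 96 and 825 in shCerS4 cells to 53 to 357 and 535 to 1358, and from 65 and 36 in the difference to 8 to 451 and 3 to 317. The filters changed the number of genes counted, which was 10283 in the main setting, 7727 at 20 CPM and 12967 without a filter. Counts under different filters are therefore not over the same genes. No paired analysis was possible because each group has 1 library. With 1 library per group, counting depth limits only the intervals, and variation between cultures was not measured.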

Other observations

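The shares of transcripts within a gene differed between libraries for some of the members with several transcripts. In Tead4, a TEAD gene outside the 10, the second transcript held 19.7% of the gene in shSCR IgG, 19.4% in shSCR Caprin-1, 13.7% in shCerS4 IgG and 45.9% in shCerS4 Caprin-1, while the gene's sum stood at 17.8, 15.1, 14.7 and 11.9 CPM. In Tead2 the most abundant of 5 transcripts held 68.9% and 77.9% of the gene in the shSCR IgG and Caprin-1 libraries and 83.5% and 88.9% in the shCerS4 ones. These shares rest on reads divided between overlapping transcripts by estimation, and their error is not known.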
